A study of Rattus norvegicus with 6 samples.

Results

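Collagen genes were described across arrays of cultured NSCPs (nerve-derived Schwann cell precursors, the glial precursors of peripheral nerve) and SKPs (skin-derived precursors, which resemble cells of the dermis). A gene was taken as a collagen chain when its symbol was Col, a number, a and a number, and when it had a probe set assigned to exactly 1 gene. Of 45 collagen genes listed by type, 36 were measured, among 18166 genes in all. The other 9 (Col4a6, Col6a1, Col6a4, Col6a5, Col9a3, Col21a1, Col22a1, Col25a1 and Col28a1) were not analysed here. Where a gene had several probe sets the one with the highest mean was kept.

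The NSCP group held 3 cultures from the sciatic nerve and the SKP group 3 cultures from the back skin of newborn wild-type Sprague-Dawley rats, each culture an independent isolate measured on its own array. NSCPs grew attached to plates coated with laminin and poly-D-lysine, in medium with neuregulin-1β, forskolin, N2 and antibiotics. SKPs grew as free spheres in DMEM-F12 with FGF2 and EGF, and the B27 and fungizone of a run-on growth text were read as part of that medium. Tissue of origin, medium, coating and growth form all differ between NSCPs and SKPs, so their parts cannot be told apart. The cells are cultured populations with no sort given in the sources used here, and in such bulk RNA fewer cells of a type and less RNA per cell cannot be told apart.

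Collagens are secreted or membrane-bound proteins in which 3 chains wind into a triple helix. Fibrillar collagens build the cables of dermis, tendon and the connective tissue of nerve. FACIT collagens (fibril-associated collagens with interrupted triple helices) sit on the surface of those fibrils. Type IV collagen forms the sheet of basement membranes, which Schwann cells lay down around themselves, type VI forms beaded microfilaments, and types VIII and X form hexagonal networks. Transmembrane collagens are made as proteins anchored in the cell membrane.

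More collagen genes were lower in NSCPs than higher, and the sizes of the differences varied widely. Of the 36 genes 18 were lower in NSCPs, 3 were higher (Col5a3, Col14a1 and Col9a1) and 15 did not pass the test (limma, Benjamini-Hochberg adjusted p under 0.05 over all genes). The 21 called genes were 58.3% of the collagens, against 43.7% of all genes. The share of collagen genes called lower was 50%, against 18.6% of all genes, and the share called higher was 8.33%, against 25.2% of all genes. The all-gene shares also apply to the counts of each type and list given below. The median difference, NSCP minus SKP on the log2 scale, was -0.35 over collagen genes and 0.14 over all genes. At least 2-fold differences were found for 9 collagen genes lower in NSCPs (25% of them, against 9.98% of all genes) and for 2 higher (5.56%, against 7.45% of all genes). The NSCP arrays lay wholly below the SKP arrays for 18 collagen genes and wholly above for 9, against 22.1% and 34.4% of all genes (56.6% in either direction). The median of all genes stood 0.20 lower in NSCP arrays, and when each array was centred on its median the split of collagen calls became 12 higher and 15 lower in NSCPs. The 9 genes gained as higher were Col4a3, Col4a4, Col5a1, Col9a2, Col10a1, Col11a2, Col13a1, Col16a1 and Col24a1. With renewed quantile normalization the split was 5 higher and 17 lower. Centring adds about 0.20 to the difference of every gene, so it leaves the gap between the collagen and all-gene medians unchanged. The shares of all genes called under either scaling are not given here.

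**Figure D1:**
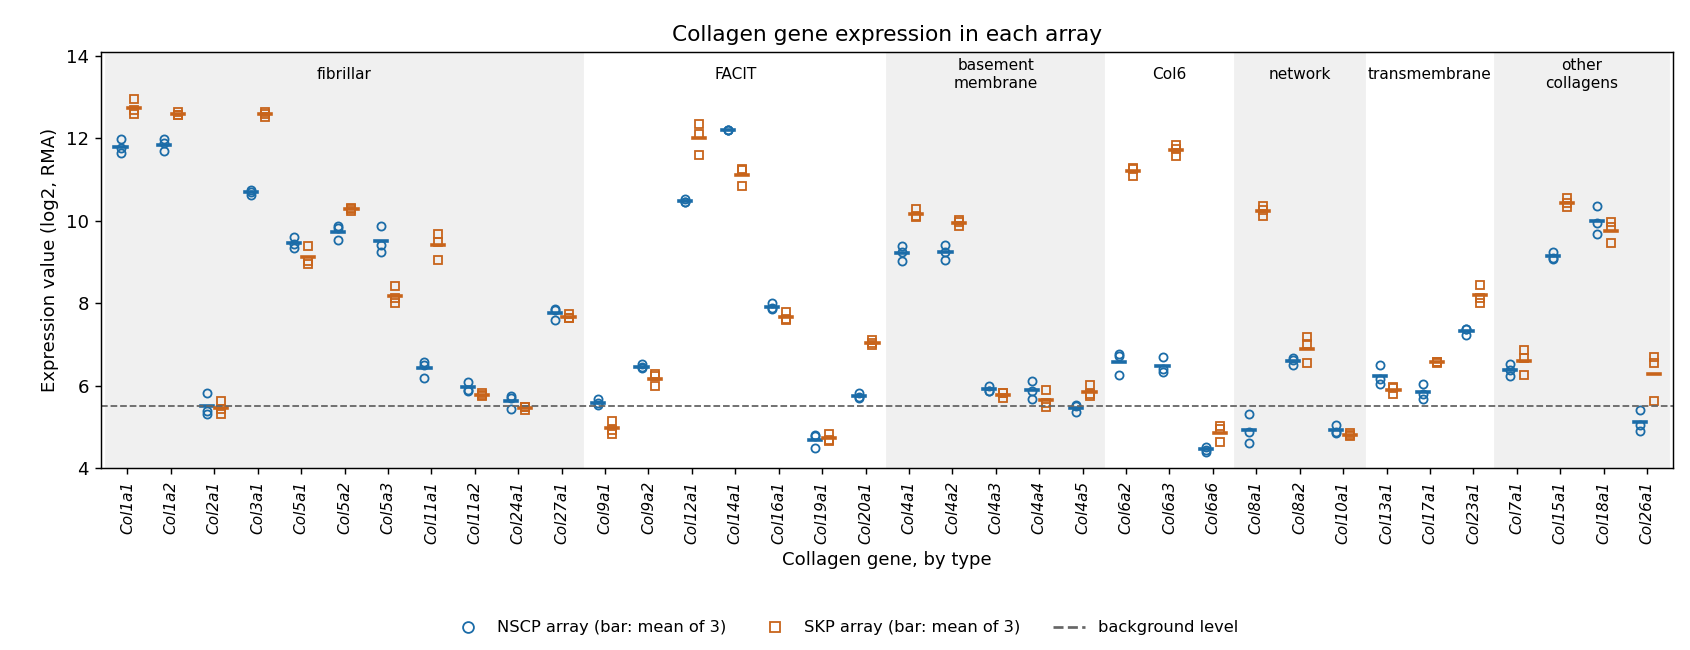
Log2 expression value (vertical axis) of the 36 collagen genes (horizontal axis, grouped by type) in each array. Circles are the 3 NSCP arrays, squares the 3 SKP arrays, short bars the group means, and the dashed line the background level of 5.5. Col6a2, Col6a3 and Col8a1 show the widest gaps, with SKP arrays above 10 and NSCP arrays below 7, while Col14a1 and Col5a3 show NSCP arrays above SKP arrays.

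To judge which chains were expressed, a background level of 5.5 on the log2 scale was used, below which 95% of 1344 receptor genes of the olfactory and vomeronasal epithelium had their mean. Both group means lay above it for 27 of the 36 genes. Col6a6, Col10a1 and Col19a1 were within it in both groups. Col4a5, Col8a1 and Col26a1 were within it only in NSCPs, and Col2a1, Col9a1 and Col24a1 only in SKPs. For these genes a difference rests on a background level on at least 1 side. Levels of different genes come from different probes and were not compared. The all-gene shares of calls given here include 5495 of 18166 genes within background in both groups. Among genes above it in at least 1 group, 20 of 33 collagen genes were called, against 7045 of 12671 genes in all. Called lower in NSCPs were 17 of these collagen genes, against 3202 genes in all, and called higher 3, against 3843.

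Among fibrillar collagens 5 of 11 measured genes were lower in NSCPs, 1 was higher and 5 did not pass. Of all genes 18.6% were called lower and 25.2% higher. The main chains of type I and III collagen stayed far above background in both cell types. Col1a1, which encodes the α1 chain of type I collagen, had 11.64, 11.99 and 11.77 in NSCPs, against 12.60, 12.96 and 12.68 in SKPs. The groups did not overlap, and Col1a1 was 1.93-fold lower in NSCPs (difference -0.95, SE 0.15, adjusted p = 0.000933 in limma). Its partner chain Col1a2 averaged 11.85 ± 0.14 (SD) over the 3 NSCP arrays and 12.59 ± 0.05 over the 3 SKP arrays, 1.67-fold lower in NSCPs.

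Col3a1, the chain of type III collagen, which is deposited together with type I in skin and nerve, was lower in NSCPs as well. It had 10.63, 10.74 and 10.70 in NSCPs, against 12.59, 12.65 and 12.53 in SKPs, with little spread within either group. The difference was -1.90 (SE 0.11, adjusted p = 2.63e-06), a 3.74-fold lower level in NSCPs. Within arrays, Col3a1 changed by -0.95 relative to Col1a1 (exact permutation test over samples, 2-sided, p = 0.10, the smallest that 3 against 3 arrays allow). That was 1 of 6 gene pairs compared this way, and with the Benjamini-Hochberg adjustment over them the exact p stayed at 0.10 for all 6.

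The 3 genes of type V collagen, which nucleates fibrils and limits their width, went separate ways. Col5a3 is the gene of the least widespread chain of this type. Its values were 9.25, 9.87 and 9.42 in NSCPs, against 8.12, 8.41 and 8 in SKPs, so every NSCP array lay above every SKP array. It was 2.53-fold higher in NSCPs (difference 1.34, SE 0.19, adjusted p = 0.000476). Col5a2 was 1.45-fold lower (9.74 ± 0.18 (SD) over the 3 NSCP arrays and 10.28 ± 0.04 over the 3 SKP arrays, adjusted p = 0.00998), a call lost with median centring (-0.33, adjusted p = 0.0526). Relative to Col5a2 within the same arrays, Col5a3 changed by 1.87. Both genes had arrays apart, in opposite directions, so the exact permutation p had to be 0.10, the smallest possible.

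Col5a1, the chain that most type V molecules share, had 9.33, 9.61 and 9.45 in NSCPs, against 9.03, 9.38 and 8.96 in SKPs, and the groups overlapped. The difference, 0.34, did not pass (adjusted p = 0.10). It passed without SKP replicate 2 (0.47, adjusted p = 0.0335), with median centring (0.54, adjusted p = 0.0174), with array weights (0.41, adjusted p = 0.0143), with the mean of its probe sets (0.43, adjusted p = 0.046) and on its second probe set (0.52, adjusted p = 0.0464 over all probe sets).

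Col11a1, best known from cartilage, where type XI collagen starts the fibrils, showed the largest fibrillar difference. It had 6.57, 6.51 and 6.18 in NSCPs, against 9.05, 9.49 and 9.69 in SKPs. It was 7.95-fold lower in NSCPs (difference -2.99, SE 0.19, adjusted p = 3.98e-06). Its partner gene Col11a2 differed by 0.17 and did not pass (adjusted p = 0.261), at 5.96 ± 0.12 (SD) over the 3 NSCP arrays and 5.78 ± 0.03 over the 3 SKP arrays. Col2a1, the cartilage fibril gene, averaged 5.50 in NSCPs and 5.46 in SKPs, at the background level. The cartilage markers Acan, Matn1, Matn3 and Snorc, none of which passed, had a mean of 5.27 to 5.37 over NSCP arrays and of 4.96 to 5.41 over SKP arrays, and 2 of the 4 lay within background in both groups. Comp of the same list was not analysed. Col27a1, a further fibrillar gene of cartilage, had 7.59, 7.85 and 7.83 in NSCPs, against 7.63, 7.74 and 7.64 in SKPs, a difference of 0.09 (95% interval -0.19 to 0.37). The fifth fibrillar gene that did not pass was Col24a1.

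Of 7 measured FACIT genes 2 were higher in NSCPs, 2 lower and 3 not called, against 25.2% of all genes called higher and 18.6% called lower. Col14a1 and Col12a1 encode related collagens that coat type I fibrils in dermis and tendon, and they differed in opposite directions. Col14a1 had 12.21, 12.21 and 12.21 in NSCPs, against 11.25, 10.84 and 11.23 in SKPs. It was 2.15-fold higher in NSCPs (difference 1.11, SE 0.14, adjusted p = 0.000295).

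Col12a1 had 10.47, 10.45 and 10.54 in NSCPs, against 12.35, 11.60 and 12.12 in SKPs. It was 2.89-fold lower in NSCPs (difference -1.53, SE 0.19, adjusted p = 0.000221). The groups of each gene did not overlap, and within arrays Col14a1 changed by 2.64 relative to Col12a1. With the genes apart in opposite directions, the exact permutation p had to be 0.10, the smallest possible, and adds nothing to the calls.

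Col20a1, a FACIT gene of less known function, had 5.71, 5.83 and 5.73 in NSCPs, close to background, against 7.10, 6.98 and 7.03 in SKPs, and was 2.43-fold lower in NSCPs (adjusted p = 3.13e-05). Col9a1, which encodes a chain of the cartilage FACIT collagen type IX, had 5.52, 5.58 and 5.67 in NSCPs, against 5.15, 4.92 and 4.82 in SKPs. It passed as higher in NSCPs (difference 0.62, adjusted p = 0.00466), but its SKP mean was within background. The companion chain gene Col9a2 had 6.42, 6.45 and 6.52 in NSCPs, against 5.98, 6.23 and 6.28 in SKPs, and the difference, 0.30, did not pass (adjusted p = 0.0873). Col9a2 passed with renewed quantile normalization (0.48, adjusted p = 0.0123), median centring (0.50, adjusted p = 0.0113) and array weights (0.27, adjusted p = 0.0453). Col16a1 had 7.88, 8 and 7.87 in NSCPs, against 7.59, 7.78 and 7.61 in SKPs, and also did not pass (0.26, adjusted p = 0.106), except with median centring (0.46, adjusted p = 0.0124) and array weights (0.25, adjusted p = 0.0353). The arrays did not overlap for Col9a2 or for Col16a1. Col19a1 was within background in both groups.

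**Figure D2:**
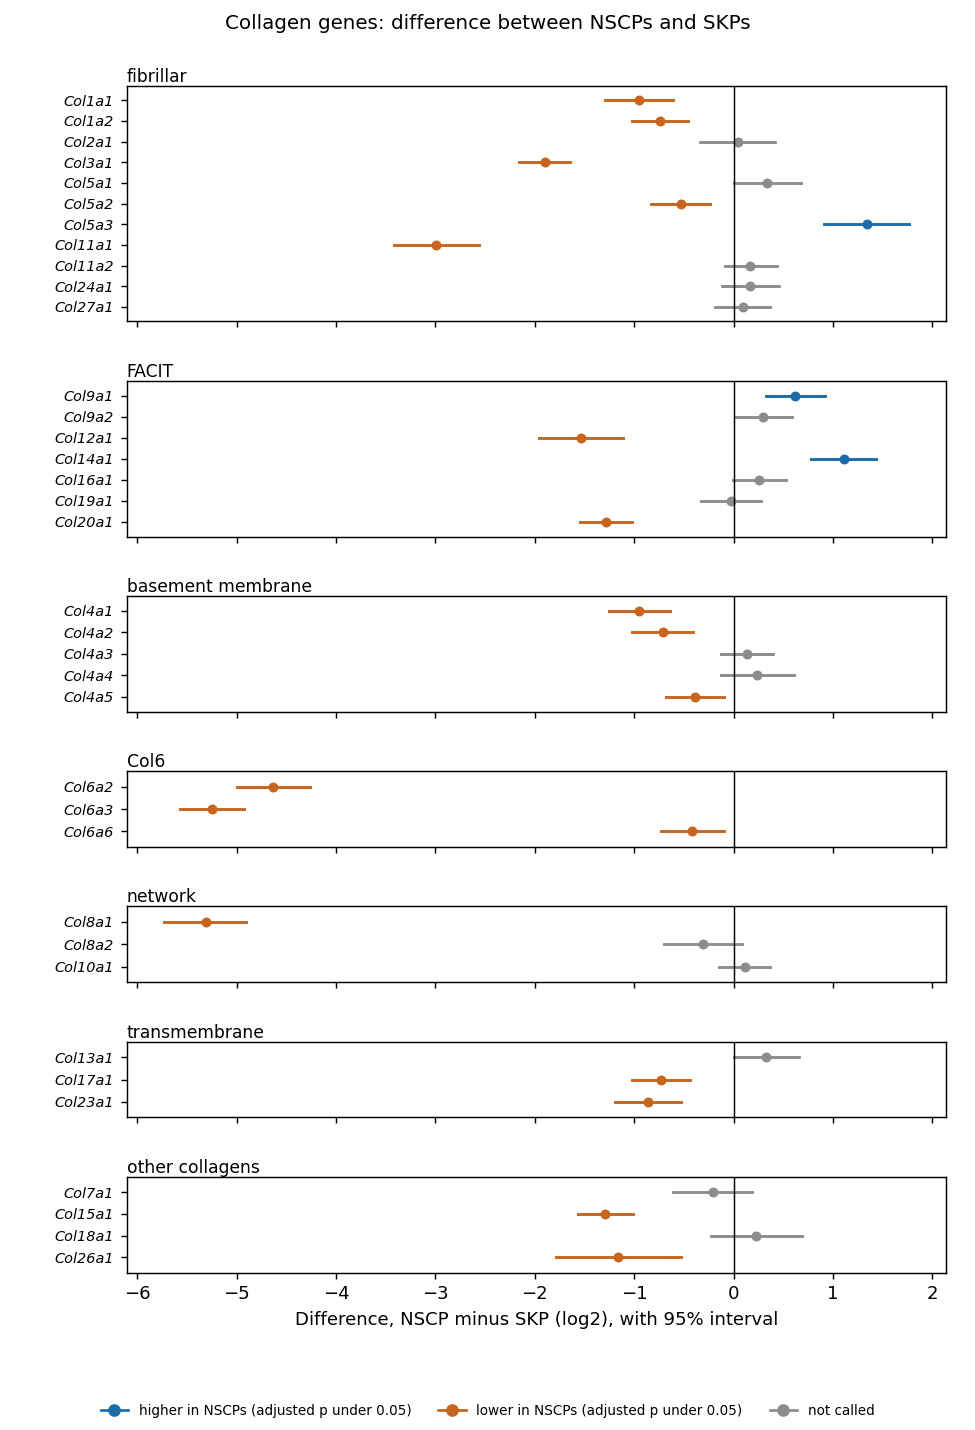
Difference between NSCPs and SKPs (log2, horizontal axis, NSCP minus SKP) for each collagen gene, with its 95% interval from limma, in 1 panel per type. Blue marks genes higher and orange genes lower in NSCPs at adjusted p under 0.05, and grey those not called. The differences run from -5.31 for Col8a1 to 1.34 for Col5a3, and the 2 genes of type VI at -4.63 and -5.25 stand apart from the third at -0.42.

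Of the 5 measured genes of basement membrane type IV collagen 3 were lower in NSCPs and 2 did not pass. Of all genes 18.6% were called lower. Col4a1 and Col4a2, which supply the chains of nearly all basement membranes, remained well expressed in NSCPs. Col4a1 had 9.03, 9.38 and 9.25 in NSCPs, against 10.09, 10.28 and 10.12 in SKPs, a 1.93-fold lower level in NSCPs (difference -0.95, SE 0.13, adjusted p = 0.000554). Col4a2 had 9.05, 9.42 and 9.25 in NSCPs, against 9.87, 10.02 and 9.97 in SKPs, a 1.64-fold lower level (difference -0.71, SE 0.13, adjusted p = 0.00262). The groups did not overlap for either gene, and NSCP replicate 1 was the lowest and replicate 2 the highest NSCP array for both.

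The remaining type IV genes are chains best known from kidney and other specialised basement membranes. Col4a3 had 5.87, 5.88 and 5.99 in NSCPs, against 5.82, 5.82 and 5.69 in SKPs, and did not pass (0.14, adjusted p = 0.363). Col4a4 had 5.87, 6.11 and 5.67 in NSCPs, against 5.57, 5.89 and 5.48 in SKPs, and did not pass either (0.24, adjusted p = 0.265). Col4a5 had 5.51, 5.52 and 5.35 in NSCPs, against 5.75, 6.01 and 5.79 in SKPs, and its difference of -0.39 passed narrowly (adjusted p = 0.0337). That call was lost without NSCP replicate 1 or 3 or SKP replicate 2 or 3 (differences of -0.31 to -0.42, adjusted p = 0.0558, 0.115, 0.105 and 0.0731), with median centring (-0.19), with renewed quantile normalization (-0.34) and with adjustment over all probe sets.

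The type IV genes lie in the genome as head-to-head pairs, which are transcribed in opposite directions from a shared stretch of DNA. In the RefSeq annotation of build GRCr8, 7 pairs of collagen genes were direct neighbours among protein-coding genes, and both genes were measured in 4 of them. Col4a2 with Col4a1 on chromosome 16 and Col3a1 with Col5a2 on chromosome 9 were lower in NSCPs in both members. Col4a4 with Col4a3 on chromosome 9 passed in neither member, and of Col9a1 with Col19a1 on chromosome 9 only Col9a1 passed. The annotated starts of Col4a2 (minus strand) and Col4a1 (plus strand) enclose the stretch chr16:84885521-84885596, 76 bases long, shown here from the plus strand because it is the DNA both genes share. Capitals mark a GC box (GGGCGG, either strand).
Col4a2-Col4a1: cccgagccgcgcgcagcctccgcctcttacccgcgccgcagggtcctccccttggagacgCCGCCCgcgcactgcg

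RefSeq promoter windows (build GRCr8, 250 bases before to 50 after each annotated start) were at hand for 30 of the 36 genes. They were searched on both strands for the TATA box (TATAAA), the CCAAT box (CCAAT), the GC box (GGGCGG) and the CTC box (CCCTCCCC), a motif known from type IV collagen genes. GGGCGG was found in 18 of the 30 genes (60.0%) and in 33.1% of all 33469 windows, CCCTCCCC in 7 (23.3%, against 10.5%), CCAAT in 8 (26.7%, against 37.5%) and TATAAA in 4 (13.3%, against 14.2%). Some genes have several windows. A collagen gene counted once if any of its windows held the motif, while the share over all was per window. That can raise the collagen shares, so both rates are not strictly alike. The 250 bases before the start are printed for 3 genes that stand for a chain 1.67-fold lower in NSCPs (Col1a2, chr4:33518307-33518556, plus strand), a chain with one of the widest gaps (Col8a1, chr11:56246532-56246781, plus strand) and the fibrillar chain higher in NSCPs (Col5a3, chr8:27625949-27626198, minus strand). Each reads toward its gene, and capitals mark matches to the 4 motifs on either strand.
Col1a2: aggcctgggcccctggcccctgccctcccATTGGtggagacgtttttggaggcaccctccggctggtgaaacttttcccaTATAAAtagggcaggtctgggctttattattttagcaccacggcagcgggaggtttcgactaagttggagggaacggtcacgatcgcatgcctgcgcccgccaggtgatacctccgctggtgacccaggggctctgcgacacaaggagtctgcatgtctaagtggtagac
Col8a1: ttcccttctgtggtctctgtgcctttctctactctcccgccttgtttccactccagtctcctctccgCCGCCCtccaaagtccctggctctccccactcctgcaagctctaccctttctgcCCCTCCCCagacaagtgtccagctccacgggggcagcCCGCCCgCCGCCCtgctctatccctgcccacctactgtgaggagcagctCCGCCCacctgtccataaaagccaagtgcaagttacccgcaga
Col5a3: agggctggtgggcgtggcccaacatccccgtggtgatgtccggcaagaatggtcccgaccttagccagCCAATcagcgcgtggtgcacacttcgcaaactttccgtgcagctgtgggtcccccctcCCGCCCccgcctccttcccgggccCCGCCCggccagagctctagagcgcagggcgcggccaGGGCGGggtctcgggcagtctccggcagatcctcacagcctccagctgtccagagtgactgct
Col8a1, lower in NSCPs, and Col5a3, higher, both carry GC boxes in these bases (4 and 3), and Col1a2 carries a TATA box and a reversed CCAAT box that begin 170 and 221 bases before its annotated start.

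All 3 measured genes of type VI collagen were lower in NSCPs, and 2 of them by large amounts. Col6a2 had 6.72, 6.77 and 6.25 in NSCPs, against 11.09, 11.28 and 11.26 in SKPs. It was 24.8-fold lower in NSCPs (difference -4.63, SE 0.16, adjusted p = 1.39e-07). Col6a3, whose long chain completes the classical type VI molecule, had 6.69, 6.40 and 6.33 in NSCPs, against 11.74, 11.58 and 11.83 in SKPs.

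Col6a3 was 37.9-fold lower in NSCPs (difference -5.25, SE 0.14, adjusted p = 5.66e-08). NSCP values of both genes stayed above background in every array. Col6a6, one of the chains related to that of Col6a3, had 4.39, 4.52 and 4.44 in NSCPs, against 4.94, 5.02 and 4.63 in SKPs, all within background. Its call as lower (-0.42, adjusted p = 0.0372) was lost without any of NSCP replicates 1 to 3 or SKP replicates 1 and 2 (adjusted p = 0.0929, 0.051, 0.0934, 0.105 and 0.108), with median centring (-0.21), with array weights (-0.30) and with adjustment over all probe sets.

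Among the network-forming collagens Col8a1 was lower in NSCPs and the other 2 genes did not pass. Col8a1, a short-chain collagen of vessel walls and of the membrane beneath the corneal endothelium, had 4.88, 4.61 and 5.31 in NSCPs, against 10.13, 10.26 and 10.35 in SKPs. It was 39.8-fold lower (difference -5.31, SE 0.18, adjusted p = 1.29e-07), measured against an NSCP mean within background. With Col6a2 and Col6a3 it made up the 3 collagen genes at least 16-fold lower in NSCPs, among 217 genes in all.

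Col8a2, the second type VIII chain, had 6.67, 6.62 and 6.49 in NSCPs, against 6.54, 7.17 and 7 in SKPs, with overlap. The difference, -0.31, did not pass (adjusted p = 0.174) but did so without SKP replicate 1 (-0.49, adjusted p = 0.0289) and with array weights (-0.41, adjusted p = 0.0248). Col10a1, the network collagen of growth-plate cartilage, had 4.85, 4.88 and 5.04 in NSCPs, against 4.80, 4.85 and 4.78 in SKPs, within background in both.

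Of the 3 measured transmembrane collagens 2 were lower in NSCPs, against 18.6% of all genes. Col23a1 had 7.23, 7.38 and 7.38 in NSCPs, against 8.45, 8 and 8.13 in SKPs, and was 1.81-fold lower (adjusted p = 0.00149). Col17a1, a hemidesmosome protein of keratinocytes, had 5.80, 5.68 and 6.03 in NSCPs, against 6.58, 6.55 and 6.57 in SKPs, and was 1.66-fold lower (adjusted p = 0.00184). The keratinocyte markers Krt14 and Krt15 had a mean of 5.44 to 5.69 in NSCP arrays and 5.27 to 5.45 in SKP arrays, and neither passed. Krt5, Trp63 and Dsp of the same list were not analysed. Col13a1, a collagen of cell adhesion sites and of the neuromuscular junction, had 6.16, 6.49 and 6.04 in NSCPs, against 5.79, 5.96 and 5.94 in SKPs. Its arrays did not overlap, but the difference of 0.33 did not pass (adjusted p = 0.0971). It passed with renewed quantile normalization (0.47, adjusted p = 0.0236) and median centring (0.54, adjusted p = 0.013), and without NSCP replicate 2 it was 0.20 (adjusted p = 0.205).

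The remaining 4 genes include the multiplexins, proteoglycan-like collagens of the basement membrane zone, and the gene of anchoring fibrils. The multiplexin gene Col15a1 had 9.11, 9.25 and 9.08 in NSCPs, against 10.56, 10.43 and 10.33 in SKPs, and was 2.45-fold lower in NSCPs (difference -1.29, SE 0.12, adjusted p = 4.76e-05). Its relative Col18a1, the source of endostatin, had 9.67, 10.35 and 9.95 in NSCPs, against 9.47, 9.97 and 9.84 in SKPs. The groups overlapped, and the difference of 0.23 did not pass (95% interval -0.23 to 0.69).

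Col26a1 had 4.90, 5.05 and 5.42 in NSCPs, within background, against 6.69, 5.62 and 6.55 in SKPs. The difference was -1.16 (SE 0.28, adjusted p = 0.00887). Col7a1, the anchoring fibril gene that ties basement membranes to the dermis, had 6.23, 6.53 and 6.39 in NSCPs, against 6.67, 6.26 and 6.87 in SKPs, and did not pass (-0.21, adjusted p = 0.353), except with array weights (-0.37, adjusted p = 0.0476). SKP replicate 2 was the lowest SKP array for both genes and for Col12a1, but the highest for others, such as Col1a1, Col3a1, Col4a1 and Col6a2.

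Making a collagen also needs enzymes that hydroxylate, fold, export, trim and crosslink the chains. Of 34 measured genes of this machinery 19 were lower in NSCPs, 4 higher and 11 not called, against 18.6% and 25.2% of all genes called lower and higher. Their median difference was -0.68, against 0.14 over all genes. The hydroxylases, glycosyltransferases and chaperones had 7 of 18 lower and 2 higher.

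P3h3, a relative of the prolyl 3-hydroxylases, averaged 7.28 ± 0.13 (SD) over the 3 NSCP arrays and 9.28 ± 0.19 over the 3 SKP arrays, a difference of -2. Crtap, the partner of prolyl 3-hydroxylase, differed by -1.76, and the chaperone gene Fkbp10 by -1.70. P3h2, the prolyl 3-hydroxylase gene with a known preference for type IV collagen, was higher in NSCPs (10.51 ± 0.09 (SD) over the 3 NSCP arrays and 9.75 ± 0.13 over the 3 SKP arrays, difference 0.76, adjusted p = 0.00127), as was the glycosyltransferase gene Colgalt2 (0.61). The central enzyme genes P4ha1 and P4hb and the chaperone gene Serpinh1, chosen after their values were seen, differed by -0.05, 0.08 and -0.02 and did not pass, at group means of 11.27 to 12.01.

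Of 4 genes listed under export, among them the transcription factor gene Creb3l1, 3 were lower in NSCPs, against 18.6% of all genes. Creb3l1, which encodes a transcription factor of secretory cells known to activate a type I collagen gene in mouse bone, had 6.15, 6.23 and 6.37 in NSCPs, against 10.04, 10.5 and 9.87 in SKPs. Its difference was -3.88 (SE 0.17, adjusted p = 5.49e-07). The genes of the COPII vesicle coat Sec24d and Sec23a, which carry procollagen out of the endoplasmic reticulum, differed by -1.44 and -1.02.

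Genes of propeptide removal had 5 of 7 lower in NSCPs and 1 higher, against 18.6% and 25.2% of all genes. Pcolce, the enhancer of procollagen C-proteinase, differed by -3.14 (7.39 ± 0.33 (SD) over the 3 NSCP arrays and 10.53 ± 0.17 over the 3 SKP arrays), and the N-proteinase genes Adamts2 and Adamts3 by -2.01 and -0.86. The call of Adamts3 was lost without NSCP replicate 1 or 2 or SKP replicate 2 or 3 (adjusted p = 0.0542, 0.0862, 0.0501 and 0.0558) and with median centring (-0.65). Tll1, a C-proteinase gene, was higher in NSCPs by 1.92 (adjusted p = 0.000364), with 7.31, 7.17 and 7.54 in NSCPs, against 5.96, 4.86 and 5.42 in SKPs, where its mean was within background.

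All 5 crosslinking genes passed, with 4 lower and 1 higher in NSCPs, against 18.6% and 25.2% of all genes. Lox, which encodes lysyl oxidase, had 5.89, 6.17 and 5.90 in NSCPs, against 10.17, 10.95 and 10.47 in SKPs. The difference was -4.54 (SE 0.20, adjusted p = 4.87e-07). Loxl4 and Loxl2 differed by -3.66 and -2.14. Loxl3 was higher in NSCPs (8.53 ± 0.28 (SD) over the 3 NSCP arrays and 7.68 ± 0.11 over the 3 SKP arrays, difference 0.85, adjusted p = 0.00275).

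**Figure D3:**
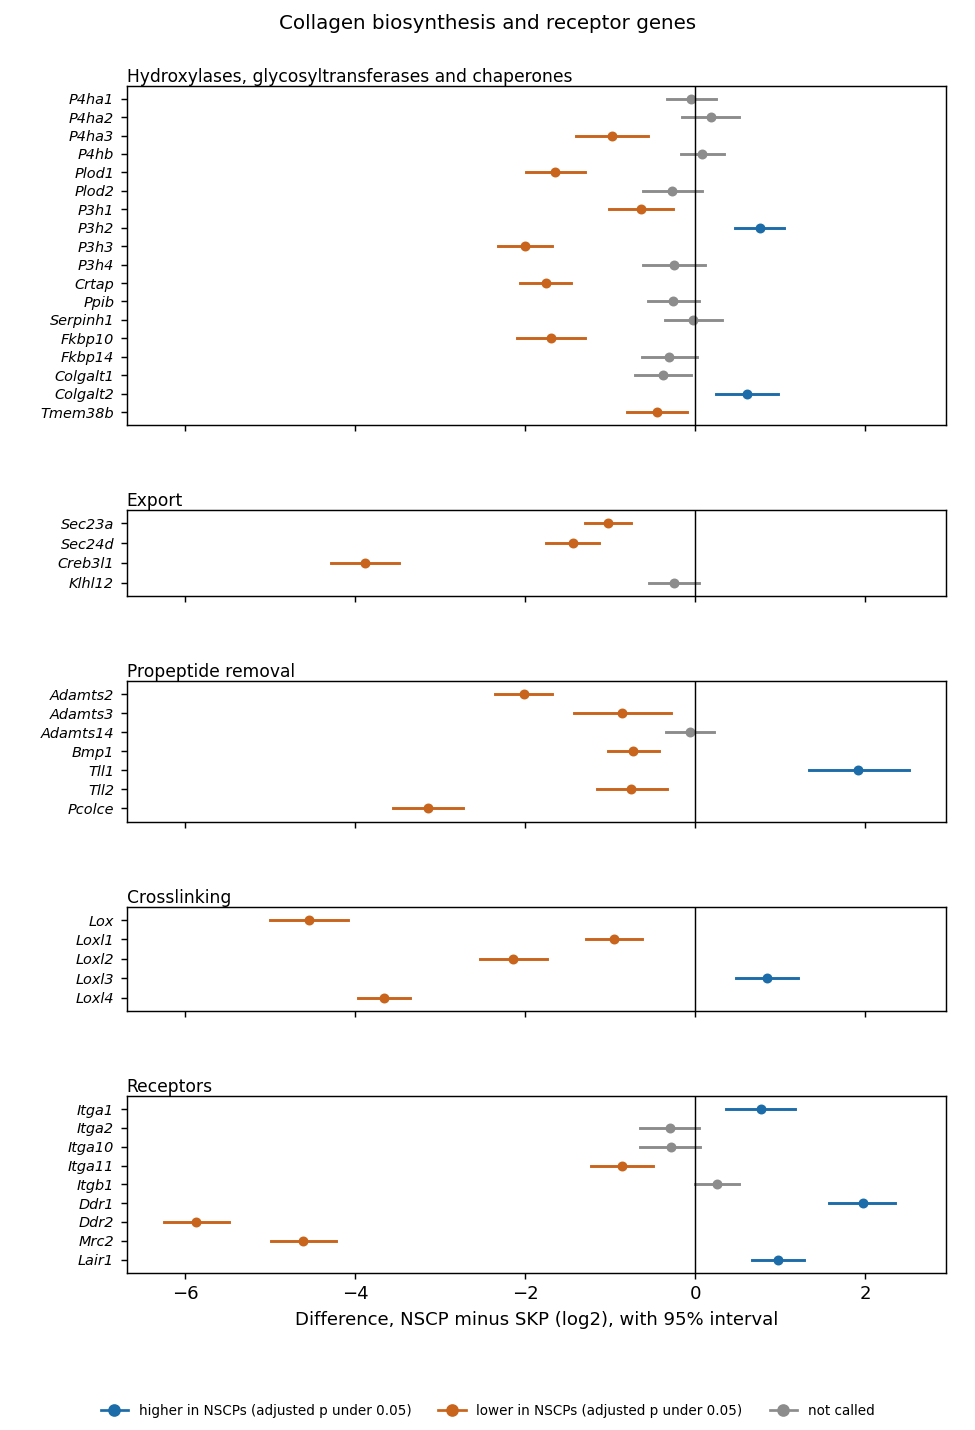
Difference between NSCPs and SKPs (log2, horizontal axis, NSCP minus SKP) with its 95% interval from limma, for 34 genes of collagen biosynthesis and 9 collagen receptor genes. Blue marks genes higher and orange genes lower in NSCPs at adjusted p under 0.05, and grey those not called. Lox at -4.54, Creb3l1 at -3.88 and Ddr2 at -5.87 lie far to the left, and Ddr1 at 1.97 and Tll1 at 1.92 farthest to the right.

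Of 9 measured collagen receptor genes 3 were higher in NSCPs, 3 lower and 3 not called. Of all genes 25.2% were called higher and 18.6% lower. The discoidin domain receptors, tyrosine kinases that bind collagen, went in opposite directions. Ddr1 had 8.83, 9.37 and 8.93 in NSCPs, against 7.24, 6.93 and 7.06 in SKPs, a 3.91-fold higher level in NSCPs (SE 0.17, adjusted p = 2.53e-05). Ddr2 had 4.99, 5.2 and 5.50 in NSCPs, within background on average, against 11, 10.99 and 11.32 in SKPs, a difference of -5.87.

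Mrc2, an endocytic receptor that clears collagen fragments, differed by -4.61 (6.47 ± 0.26 (SD) over the 3 NSCP arrays and 11.08 ± 0.19 over the 3 SKP arrays). Among integrin subunits Itga1, of a receptor with a preference for type IV collagen, was higher in NSCPs by 0.77 (adjusted p = 0.0085), and Itga11, of a fibrillar collagen receptor of fibroblasts, was lower by -0.86 with an NSCP mean within background. Lair1, an inhibitory collagen receptor of leukocytes, passed as higher in NSCPs (0.97), but its means of 5.50 and 4.53 in NSCPs and SKPs lay at and within background.

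Markers of the cell types that could supply these transcripts were measured in the same arrays. Of 7 dermal fibroblast markers 7 were lower in NSCPs and 5 had an NSCP mean within background, and the mean of the list was 4.72 to 5.08 in NSCP arrays and 11.40 to 11.49 in SKP arrays. In NSCPs Lum, Dcn, Fap, Prrx1 and Pdgfra had means of 3.23, 4.10, 3.54, 4.98 and 5.44, the last of them just under the background level. Thy1 and Twist2 of the same list lay above it, at 6.32 and 6.66. The part of fibroblasts in the collagen results was not tested. The 6 measured Schwann lineage markers were all higher in NSCPs, with list means of 10.97 to 11.02 in NSCP arrays and 6.43 to 6.72 in SKP arrays, and 5 of the 6 lay above background in SKPs too. Leukocyte and macrophage markers were lower in NSCPs for 9 of 9 genes, and 7 had an NSCP mean within background.

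The mean of these leukocyte markers was 5.02 to 5.18 in NSCP arrays, against 10.92, 9.86 and 10.23 in SKP replicates 1, 2 and 3. The 4 adipocyte markers averaged 5.02 to 5.34 in NSCP arrays, against 7.95, 7.26 and 7.93 in SKP replicates 1, 2 and 3, and were all lower in NSCPs. SKP replicate 2 had the lowest leukocyte and adipocyte means of the SKP arrays, and the part of these cell types in the collagen results was not tested. The 3 measured endothelial markers were within background in both groups, where Emcn was called higher in NSCPs (0.47, adjusted p = 0.0101 in limma). Pecam1 and Kdr of that list were not analysed. Of the 4 measured mural cell markers 2 were lower in NSCPs, with list means of 5.53 to 5.62 in NSCP arrays and 6.27 to 6.69 in SKP arrays. Acta2 of that list was not analysed.

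**Figure D4:**
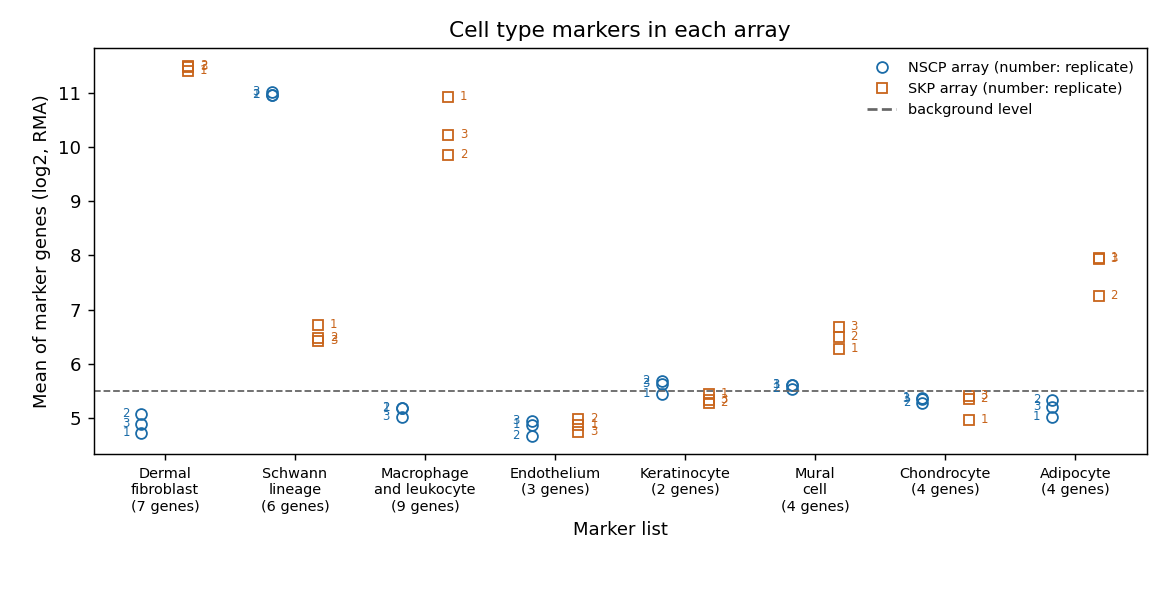
Mean log2 expression value (vertical axis) of the measured genes of each marker list (horizontal axis) in every array. Circles are NSCP arrays, squares SKP arrays, small numbers the replicate, and the dashed line the background level of 5.5. Fibroblast, leukocyte and adipocyte lists lie below the line in NSCPs and above it in SKPs, the Schwann lineage list is near 11 in NSCPs, and SKP replicates differ most in the leukocyte list (9.86 to 10.92).

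For most collagen genes the SD between isolates of the same kind was 0.3 or less. Over all genes, arrays correlated at 0.987 to 0.993 within NSCPs and 0.984 to 0.992 within SKPs. The SDs of all genes were not set beside those of collagens. The SD over 3 arrays had a median of 0.15 in NSCPs and 0.12 in SKPs, and exceeded 0.3 for 3 genes in NSCPs and for 5 in SKPs. The largest spread was that of Col26a1 in SKPs (SD 0.58). The other SKP genes past 0.3 were Col7a1, Col8a2, Col11a1 and Col12a1.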

How the data were processed

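RNA of 3 NSCP and 3 SKP cultures was hybridised to 6 expression arrays, from cDNA made of 400 ng total RNA per the labels' protocols. Each probe set has a deposited log2 value, which the authors made with oligo and RMA per the submitters' processing notes (versions not given in the sources used here). RMA quantile-normalizes probes, so differences are relative to the other genes, and probe set medians could still differ. No source used here gives a scan date or batch for any array. The values were used without further normalization or filter. Of 36685 probe sets, 18511 had 1 platform symbol, 575 several and 17599 none here. Of these symbols 18394 were updated through Entrez ID to RefSeq (GRCr8), leaving 18166 genes. NSCPs minus SKPs was fitted with limma 3.58.1 in R 4.3.3 (lmFit, eBayes, 2-sided, Benjamini-Hochberg over all genes), after a check on simulated data. Figures used matplotlib 3.10.9 under Python 3.11.15. No detection calls were used, and the number of arrays limits the precision.

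The collagen genes and lists were chosen with earlier results of these data known. By the naming rule, values in every array are given per type for up to 4 called genes, calls against the type's direction and the 2 genes not called with the highest mean, and in each pathway list up to 3 called genes per direction are named. Array values of further genes were added after they were seen. Replicate numbers were not taken as pairing the samples. Alternatives were other scalings, filters, probe set rules, priors, array weights, thresholds, a replicate block and each array left out.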

Additional observations from a re-analysis of the deposited data

How the results depend on the processing

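With each array left out in turn, 3 to 4 collagen genes were called higher and 16 to 18 lower in NSCPs, 19 to 21 in all. With the replicate number as a block the counts were 3 and 18. Same-numbered arrays deviated together with correlations of only 0.028 to 0.05. The deviations of each of the 3 NSCP arrays from their group mean correlated best with those of the SKP array of its own number. With so few arrays, whether that arose by chance was not tested. Pairing was not tested, and the labels state none. Col3a1, Col11a1, Col6a2, Col6a3 and Col8a1 kept their call under every alternative run, including limma's treat against a 2-fold change, which left 0 collagen genes higher and 5 lower (5 in all; at an unadjusted p under 0.05 it gave 0 and 8, and limma's eBayes at adjusted p gave 3 and 18). The count of genes higher in NSCPs moved to 5 with renewed quantile normalization, 12 with median centring and 6 with array weights. Median centring adds about 0.20 to every difference by construction. Of the pathway genes 14 passed treat, among them 1 biosynthesis gene higher and 10 lower and 1 receptor gene higher. Of biosynthesis genes 2 were higher among genes above the median of all genes, where fewer genes were tested, and 5 receptor genes were lower with array weights. The shares of all genes called under these alternatives are not given here, so these counts cannot be set against the whole array. Genes near 0 changed sign: Col19a1 with median centring (0.18), array weights (0.07) and arrays left out (-0.09 to 0.08), Col2a1 with array weights (-0.18) and arrays left out (-0.12 to 0.14), P4ha1 with median centring (0.16), array weights (0.07) and arrays left out (-0.14 to 0.01), and Serpinh1 with median centring (0.18) and arrays left out (-0.11 to 0.11). The cause of the changes with array weights was not tested. With a background level of 5.32 from 227 receptor genes, chosen after seeing the data, 63 group means of collagen genes lay above it, against 60 at 5.5.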
